A study of Rattus norvegicus with 4 samples.

Results

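Apolipoproteins are the proteins that carry lipid through the plasma, and the 10 genes described here, Apoa1, Apoa2, Apoa4, Apoa5, Apob, Apoc1, Apoc2, Apoc3, Apoe and Apoh, were taken by their symbols from the 31457 genes of the deposited table. Each of the 10 was found once in the table and measured in all libraries. The samples were livers of Lewis rats (allotype RT1L): 1 from a naive rat, and 3 taken after partial hepatectomy, an operation in which some lobes are cut away and the rest of the organ grows back. The 3 operated animals had been given, by the intravenous route, saline, ASCs-siRNC cells or ASCs-miR27b cells, and the labels spell out neither ASCs nor siRNC. The 4 libraries are called here naive, saline, siRNC and miR-27b. The sources used here do not give the age or sex of the rats, the time from surgery to collection, or whether a library holds RNA of 1 animal or of several.

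Most apolipoproteins are made by hepatocytes and secreted on lipoprotein particles. Apolipoprotein B is the scaffold of very low density lipoprotein, apolipoproteins A-I and A-II shape high density lipoprotein, and the small C apolipoproteins and apolipoprotein E exchange between particles, where they steer lipolysis by lipoprotein lipase and uptake by receptors. In mammals many of these genes lie in compact clusters. The RefSeq annotation of the rat assembly GRCr8 places Apoa1, Apoc3, Apoa4 and Apoa5 next to each other on chromosome 8, and Apoc2, Apoc4, Apoc1 and Apoe next to each other on chromosome 1, with no other protein-coding gene between them. Apob lies on chromosome 6, Apoh on 10 and Apoa2 on 13.

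Each group holds 1 library, so differences between animals could not be measured and no p-value is given. The table holds log2 values, each relative to its gene's own baseline, which lies close to the median library. In a gene whose values differ, a value of 0 therefore means a library at its gene's baseline, not a gene without reads. For the 18583 genes listed at 0 in all libraries, the values do not tell whether reads were found. Levels cannot be compared between genes. In bulk liver, fewer cells of a type and less RNA per cell cannot be told apart. The rounding of the stored values places all 10 apolipoproteins in a high-level class (at least 2 to the power 8 normalized reads), where counting error alone gives a log2 difference a 95% bound of at most 0.25. This bound covers neither differences between animals nor library preparation. A gene was called at a difference of 2-fold or more, and the same count over 8854 genes above a class of 16 normalized reads gives the background.

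The start-proximal sequences below are shown because genes of 1 cluster differed in the data that follow, with Apoa4 below naive by more than counting error in all 3 hepatectomised livers and its neighbour Apoa5 in the siRNC liver alone, while Apoc1 and Apoc2 of the other cluster were both highest in the naive liver. Of the 10 genes, 6 matched an entry of the RefSeq promoter table (GRCr8), and Apoa1, Apoa2, Apob and Apoc3 did not. The 200 bases before the annotated start are printed for Apoa4, Apoa5, Apoc2 and Apoc1, for Apoa5 and Apoc1 the first entry of the table. Apoe and Apoh are not printed. Capitals mark matches on either strand to 3 short motifs: AGGTCA, a half-site of nuclear receptors, AAGTCCA, part of the site preferred by HNF4 alpha, and TATAAA, the TATA box.
Apoa4 (GRCr8 chr8:55435579-55435778, plus strand): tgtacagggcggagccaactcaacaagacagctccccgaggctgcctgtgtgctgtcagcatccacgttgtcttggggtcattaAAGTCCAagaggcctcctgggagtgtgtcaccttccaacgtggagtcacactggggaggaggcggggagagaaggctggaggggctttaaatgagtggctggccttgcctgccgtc
Apoa5 (GRCr8 chr8:55457671-55457870, plus strand): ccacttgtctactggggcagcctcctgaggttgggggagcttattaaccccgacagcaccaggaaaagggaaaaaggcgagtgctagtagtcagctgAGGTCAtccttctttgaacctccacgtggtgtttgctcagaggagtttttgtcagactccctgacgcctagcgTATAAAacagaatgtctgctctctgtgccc
Apoc2 (GRCr8 chr1:88462366-88462565, minus strand): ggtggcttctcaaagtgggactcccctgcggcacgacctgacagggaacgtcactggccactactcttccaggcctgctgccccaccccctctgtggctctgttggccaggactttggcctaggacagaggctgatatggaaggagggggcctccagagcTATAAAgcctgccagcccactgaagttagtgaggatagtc
Apoc1 (GRCr8 chr1:88478306-88478505, minus strand): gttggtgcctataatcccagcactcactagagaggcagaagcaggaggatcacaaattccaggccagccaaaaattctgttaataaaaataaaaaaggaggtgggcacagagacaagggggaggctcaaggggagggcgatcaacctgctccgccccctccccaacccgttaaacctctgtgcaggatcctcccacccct
The Apoa4 window holds AAGTCCA, whose first base lies 116 bases before the start. The Apoa5 window holds AGGTCA 103 bases and TATAAA 30 bases before the start. The Apoc2 window holds TATAAA at 40 bases before the start, and the Apoc1 window holds none of the 3 motifs. The windows not printed of Apoe (3) and Apoh (1) also hold none of them. No match overlaps another. Over all 33469 windows of this length, AGGTCA is found in 11.4%, AAGTCCA in 2.56% and TATAAA in 10.4%. The matches are descriptions of letters, and binding was not measured. The microRNA named in the label of the miR-27b cells has this mature sequence in RefSeq, with its seed (bases 2 to 8) in capitals; the sources used here do not say which arm the cells carried.
rno-miR-27b-3p: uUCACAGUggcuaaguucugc

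The largest difference in the family was in Apoa4 (gene ID 25080), which encodes apolipoprotein A-IV, a protein of chylomicrons and high density lipoprotein made by the intestine and, in rodents, also by the liver. Its value was 1.08 in the naive library, -0.22 in saline, 0.22 in siRNC and -0.22 in miR-27b. The naive liver stood apart from all 3 hepatectomised livers, and the siRNC liver lay between it and the saline and miR-27b livers. Against naive, Apoa4 was 2.46-fold lower in the saline liver (log2 difference -1.30), 1.81-fold lower in the siRNC liver (-0.86) and 2.46-fold lower in the miR-27b liver (-1.30). The siRNC liver was above saline by 0.44, beyond the counting bound, whereas the saline and miR-27b livers differed by 0.0003. Apoa4 was the only member past 2-fold, in 2 of the 60 pairs of a member and a comparison. Over all genes, 7.51% were at least 2-fold apart between saline and naive and 9.49% between miR-27b and naive, so 1 of 10 members is near the background. Apoa4 is also an intestinal gene: of the other intestinal markers, Cdx2 was listed at 0 in all 4 libraries, Fabp2 was below the level filter at -0.85, 0.67, -2.78 and 0.0 in the naive, saline, siRNC and miR-27b libraries, and Vil1, also below it, at -0.92, 0.61, -0.92 and 1.15. Neither Fabp2 nor Vil1 was highest in the naive library, and a part of intestinal RNA in the Apoa4 values was not tested.

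**Figure D1:**
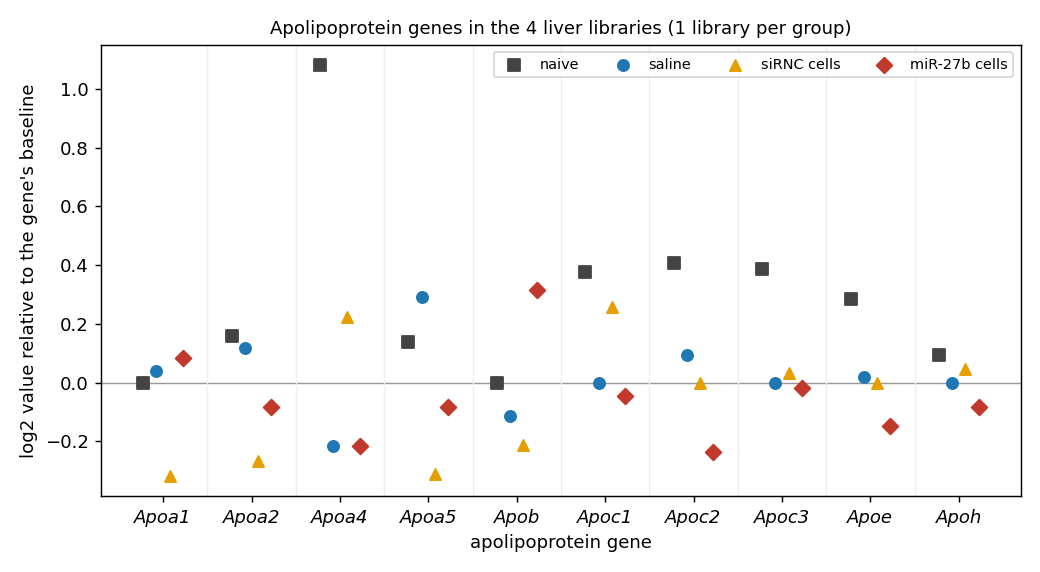
Log2 value of each apolipoprotein gene relative to its own baseline (vertical axis) in the naive, saline, siRNC and miR-27b libraries, 1 point per library with no error bars because each group holds 1 library. The naive library is highest for 7 of the 10 genes, and its value for Apoa4 (1.08) lies farthest from the rest.

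Apoc3 and Apoc2, which encode an inhibitor and an activator of lipoprotein lipase, were both lower after hepatectomy. Apoc3 (gene ID 24207), which encodes an inhibitor of lipolysis and of remnant uptake, had values of 0.39, 0.0, 0.03 and -0.02 in the naive, saline, siRNC and miR-27b libraries. The 3 hepatectomised livers lay within 0.053 of each other, inside the counting bound, and all below naive. The log2 differences from naive were -0.39, -0.35 and -0.41, that is 1.31-fold, 1.28-fold and 1.32-fold lower. Apoc2 (gene ID 292697), the cofactor that lipoprotein lipase needs, had values of 0.41, 0.09, 0.0 and -0.24 in the same order. Here the miR-27b liver was lowest, 0.64 below naive (1.56-fold), against 0.31 below it in the saline liver and 0.41 in the siRNC liver. Between the miR-27b and siRNC livers the Apoc2 difference was -0.24, inside the counting bound, and between miR-27b and saline it was -0.33, outside it.

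Apoc1 (gene ID 25292), a small protein that slows receptor uptake of lipoproteins, had values of 0.38, 0.0, 0.26 and -0.05 in the naive, saline, siRNC and miR-27b libraries. Naive and siRNC were the upper pair and lay 0.12 apart, within the counting bound, and saline and miR-27b were the lower pair, 0.046 apart. The saline and miR-27b livers were 0.38 and 0.42 below naive. The order miR-27b, saline, siRNC, naive from low to high was shared with Apoa4, Apoc3 and Apoh. Over all genes, naive was highest in 33.1% and miR-27b lowest in 26.6%. The share of all genes with the whole order was not counted. In Apoc1, Apoa4, Apoc3 and Apoh some steps of this order lay inside the counting bound, and in Apoa4 the saline and miR-27b livers differed by 0.0003. Apoe (gene ID 25728), the ligand through which hepatic receptors such as LRP1 take up remnants, had values of 0.28, 0.02, 0.0 and -0.15. All hepatectomised livers were below naive, by 0.27, 0.28 and 0.43, and they lay within 0.17 of each other. Apoc2, Apoc1, Apoe and the fourth gene of their cluster, Apoc4, were each highest in the naive liver; Apoc4, whose differences from naive were -0.11, -0.16 and -0.11, stayed inside the counting bound.

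In Apoa1 and Apoa2, genes for the main proteins of high density lipoprotein, the siRNC liver was lowest, as it also was in Apoa5 and Apob. The other libraries did not share an order in these genes. In Apoa2 and Apoa5 the next library up was miR-27b, by 0.19 and 0.23, inside the counting bound. In Apob it was saline, by 0.10, also inside it. Apoa1 (gene ID 25081), the activator of the cholesterol-esterifying enzyme LCAT, had values of 0.0, 0.04, -0.32 and 0.08 in the naive, saline, siRNC and miR-27b libraries. The naive, saline and miR-27b livers lay within 0.083 of one another, and the siRNC liver was 0.32 below naive and 0.40 below miR-27b. Apoa2 (gene ID 25649) had values of 0.16, 0.12, -0.27 and -0.08. Naive and saline lay 0.043 apart, and the siRNC liver was 0.43 below naive and 0.38 below saline. Apoa5 (gene ID 140638), a liver-made protein that promotes clearance of triglyceride-rich particles, had values of 0.14, 0.29, -0.31 and -0.08. It was the one member highest in the saline liver (background 21.4%), and the siRNC liver lay 0.60 below saline, a 1.52-fold difference and the largest in the family between 2 hepatectomised livers. The miR-27b liver was 0.37 below saline for Apoa5.

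Apob (gene ID 54225), the structural protein of very low density lipoprotein, was the one member that stood above naive by more than the counting bound. Its values were 0.0, -0.11, -0.21 and 0.32 in the naive, saline, siRNC and miR-27b libraries. The miR-27b liver was high and the other three lay within 0.21 of each other, inside the counting bound. The miR-27b liver was 0.32 above naive, 0.43 above saline and 0.53 above siRNC, the last a 1.44-fold difference. With the libraries centred on other plasma proteins instead, these 3 differences were -0.07, 0.18 and 0.29, so the first changed sign and the second came inside the bound. That list holds acute phase genes, and its median in the miR-27b library was 0.23, against 0.0 for all genes kept. Apob and Apoa1 were the 2 members highest in the miR-27b liver (background 24.3%). Apoh (gene ID 287774), which encodes beta-2-glycoprotein I, a phospholipid-binding plasma protein, had values of 0.10, 0.0, 0.05 and -0.08. Its whole range of 0.18 lay inside the counting bound, the only member of which this holds.

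As a group the 10 apolipoproteins were slightly lower after hepatectomy. In the saline liver 8 of the 10 were below naive, where 51.8% of all genes were; their median difference was -0.19 against -0.02 for all genes kept, and their mean was -0.27. In the siRNC liver all 10 were below naive (background 51.5%), with a median of -0.33 against -0.01 and none past 2-fold (background 7.28%). In the miR-27b liver 8 of 10 were below naive (background 53.4%), with a median of -0.32 against -0.04. Without Apoa4, left out after the values were seen, the medians of the other 9 were -0.11, -0.32 and -0.24. The naive liver was the highest of the 4 libraries for 7 members, where this held for 33.1% of all genes, and the lowest for none, where this held for 28.8%. These 3 comparisons share the naive library, so their differences are not independent. Beyond the counting bound, 5 members were lower and 0 higher in the saline liver (background 24.5% and 21.1%), 7 lower and 0 higher in the siRNC liver (26.1% and 20.5%), and 5 lower and 1 higher in the miR-27b liver (27.8% and 24.6%). Apoa4, Apoc2, Apoc3 and Apoe were below naive by more than the counting bound in all 3 hepatectomised livers, and 12.7% of the 2528 genes in the high-level class were.

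Among hepatectomised livers the members differed in both directions, with small medians. Below 0 were 6 of 10 between siRNC and saline (background 51.1%) and 8 of 10 between miR-27b and saline (background 50.4%). Between miR-27b and siRNC 6 of 10 were (background 49.7%). Of these, 3, 2 and 2 were lower by more than the counting bound. No member was 2-fold apart in any of these 3 comparisons, where the background was 2.79% between siRNC and saline, 2.72% between miR-27b and saline and 3.67% between miR-27b and siRNC. At 1.5-fold, 1, 1 and 2 members were called in saline, siRNC and miR-27b liver against naive (background 20.7%, 19.9% and 23.8%), and 1, 0 and 0 in the comparisons of siRNC with saline, miR-27b with saline and miR-27b with siRNC (12.1%, 12.5% and 14.1%). Between siRNC and saline, 3 members were lower beyond the counting bound (Apoa1, Apoa2 and Apoa5; background 18.1%) and 2 were higher (Apoa4 and Apoc1; background 17.7%). Between miR-27b and saline, Apoa5 and Apoc2 were lower (background 16.5%) and Apob was higher (background 18.9%). Between miR-27b and siRNC, Apoa4 and Apoc1 were lower (background 16.7%) and Apoa1 and Apob were higher (background 19.9%). The medians were -0.06, -0.06 and -0.09. The siRNC liver was the lowest of the 4 libraries for Apoa1, Apoa2, Apoa5 and Apob, and the miR-27b liver for the other 6 (backgrounds 22.7% and 26.6%). The median range over the 4 libraries was 0.43 for the 10 members and 0.43 for the high-level class.

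Centring the libraries on the 22 other plasma proteins described further on, in place of the deposited scale, moves every gene of a comparison by the same amount, and most in the miR-27b liver. That list holds acute phase genes, whose part in the shift was not tested. Its median was -0.16, -0.02, -0.004 and 0.23 in the naive, saline, siRNC and miR-27b libraries, where that of all genes kept was 0.0 in each. Each log2 difference from naive falls by 0.14 for saline, 0.15 for siRNC and 0.39 for miR-27b, and the members' medians became -0.33, -0.49 and -0.71. Between the miR-27b and naive livers 10 of 10 members were then below 0 (81.2% of all genes), 9 lower and 0 higher beyond the counting bound (66.4% and 9.53% of the high-level class). Between miR-27b and saline 9 of 10 were below 0 (77.9%), with a median of -0.32, and 8 were lower and 0 higher beyond the bound (48.6% and 6.57%), against 2 and 1 as deposited. Between miR-27b and siRNC 8 of 10 were below 0 (76.1%), with a median of -0.33, and 6 were lower and 1 higher beyond the bound (43.9% and 7.83%), against 2 and 2. The member that stayed higher there was Apob, while Apoa1 came inside the bound at 0.17. Between siRNC and saline the shift is 0.02, with 3 members lower and 1 higher. The larger counts of members that were lower thus go with larger shares of all genes.

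**Figure D2:**
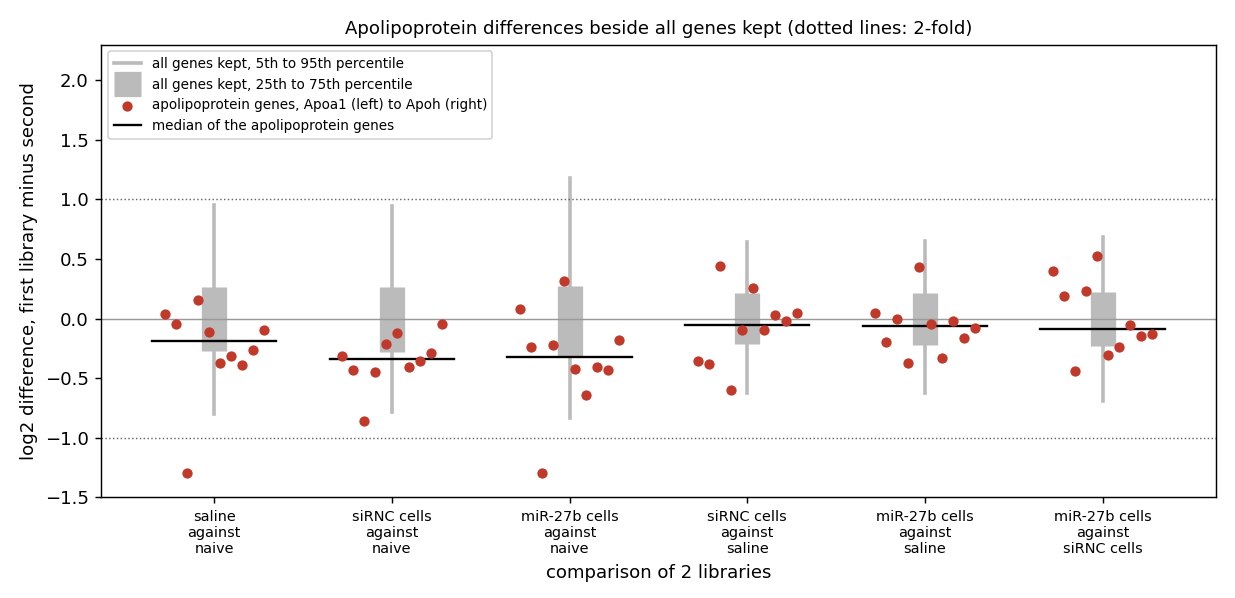
Log2 difference of each apolipoprotein gene (red points, Apoa1 at the left to Apoh at the right) in the 6 comparisons of 2 libraries, over the 25th to 75th and 5th to 95th percentile of 8854 genes (grey). Black lines mark the members' medians, which lie at -0.19, -0.33 and -0.32 against naive and between -0.09 and -0.06 among hepatectomised livers; the points below the lower dotted line are Apoa4.

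Profiles over the 4 libraries, each gene centred on its own mean, were compared by Euclidean distance in log2 units. Among members the closest pair was Apoc3 and Apoe, at 0.12, followed by Apoc2 and Apoe at 0.16 and Apoa2 and Apoa5 at 0.17. The first pair lies on different chromosomes. Within the chromosome 8 cluster the saline differences from naive were 0.04 for Apoa1, -0.39 for Apoc3, -1.30 for Apoa4 and 0.15 for Apoa5, of which the first and last lie inside the counting bound. In the siRNC liver all 4 were below naive, at -0.32, -0.35, -0.86 and -0.45, and in the miR-27b liver they were at 0.08, -0.41, -1.30 and -0.22. Within the high-level class, the 5 genes nearest to Apoa4 were LOC100910436, annotated as glyceraldehyde-3-phosphate dehydrogenase-like (distance 0.13), Nfe2l2, which encodes the antioxidant response factor NRF2 (0.14), Hal, the histidine-degrading enzyme (0.20), Lonp2, a peroxisomal protease (0.23), and RGD1566134, annotated as similar to alpha-2u-globulin (0.25). Reads of the first and last of these may be shared with near-identical copies. Hal differed from naive by -1.17, -0.58 and -1.12 in saline, siRNC and miR-27b liver, and Lonp2 by -1.18, -1.06 and -1.34. The genes nearest to the median profile of the members included Cyp4f1, Sdha, Rabggta and Akap8, at distances of 0.025 to 0.035, and 21.2% of the class lay as near to it as the median member.

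**Figure D3:**
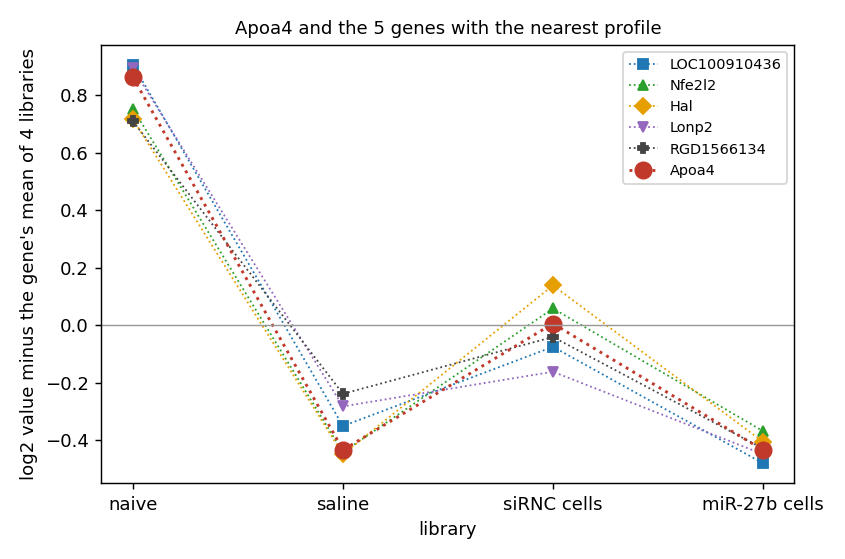
Log2 values of Apoa4 (red circles) and of its 5 nearest genes, each minus its own mean over the 4 libraries, by library; dotted lines only join the points of a gene. All 6 genes are highest in the naive library, and Apoa4 lies 0.86 above its mean there.

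Other genes of lipoprotein metabolism moved in both directions. Of 13 further apolipoproteins and related genes, 10 passed the filter on low levels and Apod and Apol11a were listed at 0 in all libraries. Their median differences from naive were -0.05, -0.07 and 0.06, and the 10 held 1 gene higher and 1 lower past 2-fold, both in the miR-27b liver (backgrounds 6.43% and 3.06%). The gene higher was Saa4, a constitutive serum amyloid A protein, at 0.73, 0.69 and 1.10 above naive, and the gene lower was Apol9a, at -0.68, -0.38 and -1.10; reads of Apol9a may be shared with its close paralogs. Apof differed by -0.19, -0.30 and -0.46. Apobr, a receptor for apolipoprotein B on macrophages, did not pass the filter and was at 1.65, 0.89 and 1.85 above naive.

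Of 18 genes of particle assembly and remodelling, 15 passed the filter, with medians of -0.03, 0.05 and 0.26 against naive. In each hepatectomised liver the same 2 of them were at least 2-fold higher and none lower (background for higher 4.42%, 4.39% and 6.43%). These were Pltp, the phospholipid transfer protein, at 1.17, 1.24 and 1.54, and Abcg1, a cholesterol exporter of macrophages and other cells, at 1.02, 1.10 and 1.23. Mttp, which loads lipid onto apolipoprotein B, had values of -0.19, -0.25, 0.0 and 0.24 in the naive, saline, siRNC and miR-27b libraries. The miR-27b liver was highest for Mttp, as for Apob, and for 9 of the 15 genes kept in this list (background 24.3%). Apobec1, the deaminase that edits Apob mRNA so that the short form of the protein is made, did not pass the filter on low levels; it was at 1.18, 1.33 and 1.85 above naive. Its RNA-binding cofactor A1cf was at -0.42, -0.10 and -0.40, and Sar1b, a coat protein of the vesicles that carry lipoproteins, at 0.06, -0.13 and -0.03. Gpihbp1 and Lipg were listed at 0 in all libraries.

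Of 18 genes of receptors and clearance, 17 were in the table and 12 passed the filter, with medians of -0.47, -0.04 and -0.17 against naive. Lrp2, a large endocytic receptor, was 1.14 below naive in the saline liver, at 0.08 in the siRNC liver and at -0.32 in the miR-27b liver. Angptl4, an inhibitor of lipoprotein lipase, differed from naive by -1.19, -3.11 and -0.41, with the siRNC liver far below the others. Vldlr, at 0.17, -1.36 and 0.52, and Mylip, a ubiquitin ligase, at 0.75, 1.53 and 0.58, also passed 2-fold but were under the filter. Other genes of the list lay closer to naive, with Lrp1 at -0.16, -0.21 and 0.09, Scarb1, the receptor for high density lipoprotein, at 0.33, 0.21 and 0.31, and Lrpap1 at 0.05, -0.13 and -0.12.

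Of 30 transcription factors and coactivators known to act on apolipoprotein genes, 28 passed the filter, with medians of -0.27, -0.13 and -0.16 against naive. In each hepatectomised liver 3 were at least 2-fold higher (background 4.42%, 4.39% and 6.43%), and 2, 1 and 3 at least 2-fold lower (background for lower 3.09%, 2.89% and 3.06%). Those higher were Nr1d1 and Ppargc1a in every hepatectomised liver, with Onecut1 in the saline and siRNC livers and Nr0b2 in the miR-27b liver. Hnf4a, a nuclear receptor that drives many apolipoprotein genes, had values of 0.71, 0.28, -0.06 and 0.0 in the naive, saline, siRNC and miR-27b libraries. The naive liver was highest, by 0.43, 0.76 and 0.71, none past 2-fold. Esr1, the oestrogen receptor, was lower past 2-fold in all 3 livers, at -1.81, -1.18 and -1.72, as was Rora, which did not pass the filter, at -1.53, -1.71 and -1.27. Mlxipl, the carbohydrate response factor, was at -0.83, -0.80 and -1.02, and Srebf1 at -2.12, 0.04 and -0.67. Nr1d1, the repressor REV-ERB alpha, whose end overlaps the neighbouring Thra so that reads there cannot be told apart, was higher at 1.89, 1.88 and 1.49, and the coactivator Ppargc1a at 1.83, 1.10 and 2.96. Onecut1 was at 2.68, 3.62 and -0.15, Foxa2 at 0.24, 0.27 and -1.15 and Nr0b2, the corepressor SHP, at 0.07, 0.27 and 1.03. Nr2f1, under the filter, was at 0.87, 1.54 and 2.03.

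**Figure D4:**
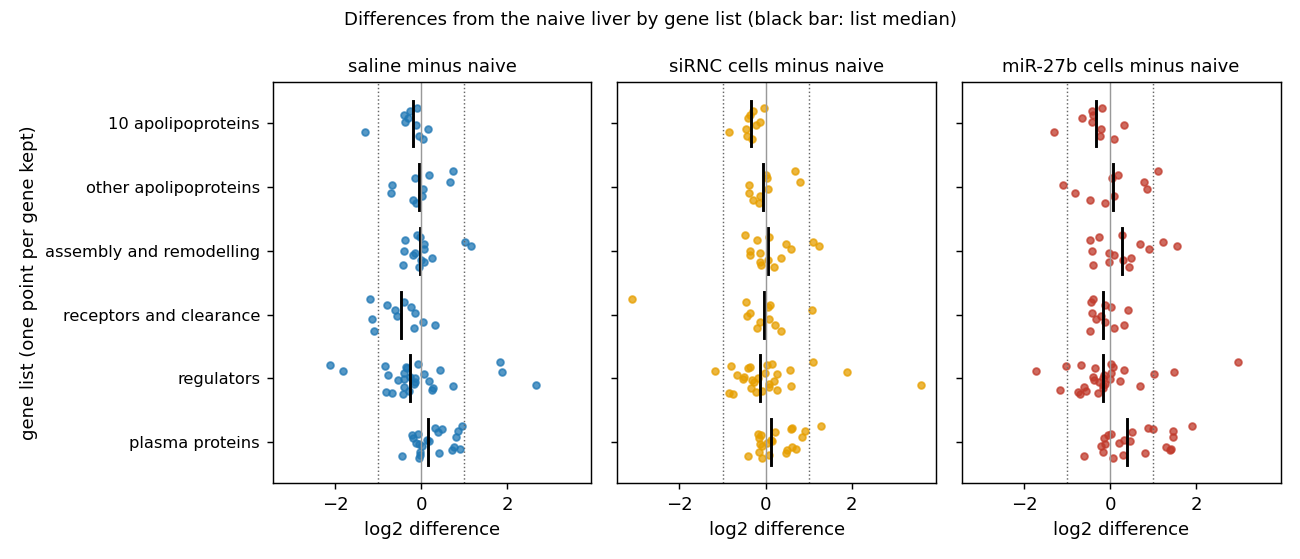
Log2 difference from the naive liver (horizontal axis) of each gene that passed the filter on low levels, by gene list, in saline, siRNC and miR-27b liver; black bars are list medians and dotted lines mark 2-fold. The medians of the 10 apolipoproteins lie at -0.19, -0.33 and -0.32, and those of the 22 plasma proteins at 0.16, 0.13 and 0.39.

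Other secreted proteins of hepatocytes were set beside the family. The 22 plasma proteins, none of them an apolipoprotein, had median differences from naive of 0.16, 0.13 and 0.39, with 0, 1 and 6 genes at least 2-fold higher (background 4.42%, 4.39% and 6.43%) and none lower. The naive liver was the lowest of the 4 for 12 of the 22 and the highest for 5 (backgrounds 28.8% and 33.1%). The miR-27b liver was the highest for 16 of them (background 24.3%). The genes at least 2-fold higher in the miR-27b liver were Cp, Hpx, Itih4 and the fibrinogen genes Fga, Fgb and Fgg, all of which encode acute phase proteins, at 1.29 to 1.89. Alb, which encodes albumin, was within 0.16 over the 4 libraries, and Ttr, the thyroxine carrier, was at -0.44, -0.40 and -0.61 against naive. All 12 hepatocyte markers passed the filter, with medians over the list of 0.0, 0.0, -0.07 and 0.12 in the naive, saline, siRNC and miR-27b libraries. All of them but Cps1 and Asgr1 are also in the plasma protein list, the fibrinogen genes included, so the lists are not separate measures. Markers of other liver cells also differed between the libraries. All 7 macrophage markers in the table were lowest in the naive library, with a list median of -1.41 there, against 0.05 in saline, -0.11 in siRNC and 0.33 in miR-27b. The 6 endothelial markers had medians of -0.81, 0.0, -0.14 and 0.08, with 5 of the 6 lowest in naive and Kdr highest there, and the 3 erythroid markers kept had medians of -1.95, 0.46, 0.0 and 0.22. The stellate cell list had another order: its 5 markers kept had medians of -0.83, -0.21, 1.03 and 0.14, highest in the siRNC liver, and Dcn was lowest in the miR-27b and Lrat in the saline liver. Of 5 bile duct markers, Krt7 and Sox9 were listed at 0 in all libraries and Epcam, the one kept, was 0.99, 0.47 and 0.58 above naive, with Krt19 at 1.98, 0.22 and 1.62 under the filter, as was Spp1, which was above naive in the same order of libraries. Of 4 neutrophil markers, the granule genes Mpo and Elane were listed at 0, and S100a8 (2.33, 2.21 and 4.13) and S100a9 (2.79, 3.96 and 5.19) were above naive but under the filter. Of 4 adipocyte markers, Adipoq, Plin1 and Lep were listed at 0 and Cidec was at -0.33, -0.44 and 0.05 against naive. The part of these cell types in the apolipoprotein differences was not tested.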

How the data were processed

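TruSeq libraries of poly(A) liver RNA were read on a MiSeq, per the labels' protocols and design text, with 1 library in each of 4 groups. The table deposited by the authors holds log2 values, named normalized in its header; the submitters' processing notes name DESeq and genome build rn5, and no source used here gives the aligner or counter. Of 12874 genes with any value but 0, 77.3% have a middle library at exactly 0, so values are read as log2 relative to a baseline per gene. Library totals were not used here and the total depth is unknown.

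Differences were taken between deposited values with Python 3.11.15, pandas 2.3.3 and numpy 2.4.6, with no pseudocount. Genes were kept (8854) where the 4 values were distinct and all were multiples of 2 to the power -21, the step that 32-bit numbers leave from about 16 normalized reads, and put in the high-level class, at least 2 to the power 8 reads (2528), at a step of 2 to the power -20. A gene of a lower class can meet such a step by coincidence, about 1 time in 8. The counting bound is the 95% limit of a log2 ratio of 2 libraries at the bottom of that class (SD 0.13). The steps were tested on simulated data.

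Members and gene lists were chosen with earlier results of these data known. Named genes are all members, all genes of 4 related lists that were 2-fold apart in any comparison and up to 3 others of each list in list order, and the 5 nearest profiles to Apoa4 (the member of widest range) and to the members' median; some genes that this rule takes are not reported here. Promoter and microRNA sequences are from RefSeq (GRCr8), another build than that of the table. Alternatives changed the filter, the scaling of libraries, the pseudocount (5), the fold (1.5) and the summary.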

Additional observations from a re-analysis of the deposited data

How the results depend on the processing

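The count of members past 2-fold and their median difference were recomputed in the 6 comparisons, and 65 of 72 recomputed values stayed within 1.5 times the count or within the counting bound of the median. Of the 72, each of the 2 changes of filter and the centring on all genes kept gave 12, which could not change. With the libraries centred on the median of the 22 plasma proteins, 1 member (Apoa4) passed 2-fold between siRNC and naive and 2 (Apoa4 and Apoc2) between miR-27b and naive, the median became -0.33, -0.49 and -0.71 in saline, siRNC and miR-27b liver against naive, -0.32 between miR-27b and saline and -0.33 between miR-27b and siRNC, and Apob was at -0.07 between miR-27b and naive. With 1.5-fold as the call, 1 member was called between siRNC and naive, 2 between miR-27b and naive and 1 between siRNC and saline. The differences of single members (180 recomputed) moved beyond the counting bound in 20 cases. These were all members between miR-27b and naive and between miR-27b and saline, moved by 1 shared amount per comparison under the plasma protein centring. There 6 differences changed sign, 1 of them (Apob, miR-27b against naive) beyond the counting bound as deposited. Centring on all genes kept shifted no library, since each median was 0.0, and the filters do not touch the members. Each group holds 1 library, so leaving one out was not run and no animal-to-animal error is known. No paired analysis was possible because each group holds 1 library.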

Other observations

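Apon and Apol3, of the wider apolipoprotein list, fall outside the rule for named genes and were chosen after their values were seen. Apon, a rodent apolipoprotein gene, was at 0.68, -0.01, 0.31 and -0.14 in the naive, saline, siRNC and miR-27b libraries. It was 0.69, 0.38 and 0.83 below naive on the log2 scale. Its order of libraries was that of Apoa4, Apoc1, Apoc3 and Apoh, an order whose share over all genes was not counted. Apol3 was at -0.05, 0.0, 0.0 and 0.81, high in the miR-27b liver alone.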
